A study of Mus musculus with 8 samples.

Results

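The genes described here make and load MHC class I molecules: B2m, H2-K1, H2-D1, Tap1, Tap2, Tapbp, Psmb8, Psmb9, Psmb10 and Nlrc5. They were taken by gene name, as all non-control probes on the arrays whose annotated gene was 1 of these 10, which gave 13 probes of 55681. RNA was measured in C2C12 myotubes, muscle cells that a mouse myoblast line forms by fusion, on day 4 of differentiation. In 4 samples macroH2A1.1 had been depleted with an siRNA, and in the other 4 a control siRNA had been used. MacroH2A1.1 is a form of a large histone H2A variant, made by alternative splicing, with a domain that binds ADP-ribose. The labels name no other allele, drug or time point for either group (1 field speaks of a knockout where the sample titles speak of siRNA, and the titles were followed), and every sample was Cy3-labelled RNA on a 1-colour Agilent array.

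MHC class I molecules display short peptides from the cell's own proteins to CD8 T cells, and nearly all nucleated cells carry them. Peptides are cut by the proteasome, more so by its inducible immunoproteasome form, pumped into the endoplasmic reticulum by the TAP transporter and loaded onto a heavy chain paired with beta-2-microglobulin. Resting skeletal muscle fibres are known for low class I levels, interferons are the best known inducers of the pathway, and NLRC5 is its transcriptional coactivator.

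All levels below are log2 processed signals centred on their own array's 75th percentile, so a level of 0 equals that percentile. Levels of different probes are not compared with each other, except where the signals of cell type markers are summed. The brightest probes weigh most in such a sum. A gene was tested when the scanner software called a probe of it well above background throughout at least 1 group, and its brightest such probe stood for it. Of the 10 genes, 8 were tested, among 13701 genes in all, and each of the 8 was well above background on all 8 arrays. Tap1 and Psmb9 were near background and were not tested. Every probe of the siRNA's target, the gene Macroh2a1 (H2afy in the files), was lower in the depleted samples: 1 probe read 0.48, 0.64, 0.38 and 0.78 in macroH2A1.1 siRNA samples, against 1.55, 1.57, 1.62 and 1.504 in control samples, a difference of -0.99 (limma adjusted p = 0.0538, and 0.0232 with replicate pairs). Which splice form each of its 3 probes reads was not checked.

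The array reads a gene through a 60-base probe, so each level below is that of 1 short stretch of its transcript. The probes of Tap1, Psmb8 and Psmb9 that carry the results below are shown first, with mm9 coordinates from the arrays' annotation. All 3 genes lie side by side in the MHC on chromosome 17, and each of these probes holds an open reading frame over its whole length.
Tap1 probe, chr17:34330854-34330913, plus strand: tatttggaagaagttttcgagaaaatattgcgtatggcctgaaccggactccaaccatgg
Psmb8 probe, chr17:34337771-34337830, plus strand: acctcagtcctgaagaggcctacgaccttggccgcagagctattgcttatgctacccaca
Psmb9 probe, chr17:34319174-34319233, minus strand: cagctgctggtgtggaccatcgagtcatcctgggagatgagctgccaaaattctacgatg

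The start-site windows of 6 members follow, because they hold the sequence that Tap1 and Psmb9 share or a match to a motif that was searched. They are 300-base RefSeq windows (GRCm38.p6) that run 5′ to 3′ on the gene's strand. In the Tap1 window the capitals mark the 225 bases that lie between the start sites of Tap1 and Psmb9, which are transcribed away from each other from chr17 positions 34187556 and 34187330. The windows of Tap1 and Psmb9 share 275 bases, so only that of Tap1 is printed. In the other windows the capitals mark a motif match: a pair of GAAA blocks with any 2 bases between them (the interferon-stimulated response element type) in B2m, GGGATTCCC (a kappa-B type) in H2-K1 and H2-D1, and TTCNNNGAA (the gamma-activated sequence type) in Psmb8.
Tap1 and Psmb9, chr17:34187306-34187605, plus strand: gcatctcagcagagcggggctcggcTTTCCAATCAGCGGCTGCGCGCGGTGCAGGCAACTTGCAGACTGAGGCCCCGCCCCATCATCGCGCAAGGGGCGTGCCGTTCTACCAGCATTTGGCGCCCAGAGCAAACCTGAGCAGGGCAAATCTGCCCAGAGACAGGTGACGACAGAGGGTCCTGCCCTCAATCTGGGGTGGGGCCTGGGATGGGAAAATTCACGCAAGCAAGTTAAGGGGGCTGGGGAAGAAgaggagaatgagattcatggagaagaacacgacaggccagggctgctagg
Psmb8, chr17:34197945-34198244, plus strand: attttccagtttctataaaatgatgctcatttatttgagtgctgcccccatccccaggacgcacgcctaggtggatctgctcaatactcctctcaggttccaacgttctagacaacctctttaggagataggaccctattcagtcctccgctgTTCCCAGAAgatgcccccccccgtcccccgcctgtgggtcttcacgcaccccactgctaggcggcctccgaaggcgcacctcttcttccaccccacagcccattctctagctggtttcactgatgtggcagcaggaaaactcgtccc
B2m, chr2:122147437-122147736, plus strand: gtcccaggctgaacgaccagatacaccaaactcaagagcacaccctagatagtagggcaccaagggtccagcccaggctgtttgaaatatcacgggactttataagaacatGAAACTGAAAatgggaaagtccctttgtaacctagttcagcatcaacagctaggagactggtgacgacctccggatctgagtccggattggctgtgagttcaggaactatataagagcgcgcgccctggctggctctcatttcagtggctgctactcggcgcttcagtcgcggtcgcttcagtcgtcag
H2-K1, chr17:34000298-34000597, minus strand: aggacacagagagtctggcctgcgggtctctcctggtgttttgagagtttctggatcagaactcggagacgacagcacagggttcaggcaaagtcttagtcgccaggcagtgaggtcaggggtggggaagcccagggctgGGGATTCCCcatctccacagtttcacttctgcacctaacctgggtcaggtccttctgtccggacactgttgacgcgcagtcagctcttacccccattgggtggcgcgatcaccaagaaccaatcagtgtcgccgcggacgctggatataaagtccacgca
H2-D1, chr17:35262844-35263143, plus strand: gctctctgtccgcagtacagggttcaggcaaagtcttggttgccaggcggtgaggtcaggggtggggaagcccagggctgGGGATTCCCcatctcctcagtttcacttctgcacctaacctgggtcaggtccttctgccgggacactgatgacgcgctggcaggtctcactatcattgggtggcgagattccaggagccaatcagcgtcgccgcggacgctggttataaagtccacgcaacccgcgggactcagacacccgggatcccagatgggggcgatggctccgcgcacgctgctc

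Motifs were searched on both strands in the windows of the 8 members that had one; Tap2 and Nlrc5 were not matched. The response element type match was at position -139 of B2m, counted from the start site, and 3.44% of 32851 windows of that length held such a match. GGGATTCCC stood at -110 in H2-K1 and at -170 in H2-D1, and was held by 0.353% of all windows. With the windows of these heavy chain genes aligned on that motif, 176 of 240 bases were identical (73.3%). TTCNNNGAA was found at -97 in Psmb8 alone among the members, and in 8.3% of all windows. The CRE-type TGACGCA was found in 0 of the 8 members' windows (2.12% of all windows), and ATTGG, the inverted CCAAT box, in 6 of 8 (37.4% of all windows). That count takes Tap1 and Psmb9 separately, although their match is the same site in the shared bases, read from opposite strands. No matches of different motifs overlapped. These are exact matches of letters, so a site that departs from the searched letters was not counted. For example, the H2-K1 and H2-D1 windows hold tgacgcg, which differs from TGACGCA in its last base. A count of 0 therefore does not show that a type of site is absent, and binding was not measured.

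Tap2 and Nlrc5 were the members with the clearest difference. Both were higher in macroH2A1.1 siRNA samples in every replicate pair, with no overlap between the groups, and both passed the threshold when samples of the same replicate number were treated as pairs, though not without pairing. Psmb8 had the largest difference on the processed signal (on the authors' series values it was 0.66, under the 0.69 of H2-K1), but its arrays disagreed more. All 8 tested members were on average higher in the depleted samples, and 0 of the 8 passed in the comparison without pairing, where 0.0219% of all genes passed in either direction and 0.0073% as higher (limma, adjusted p under 0.05; 3 of the 8 had an unadjusted p under 0.05 and a higher level, against 6.32% of all genes).

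**Figure D1:**
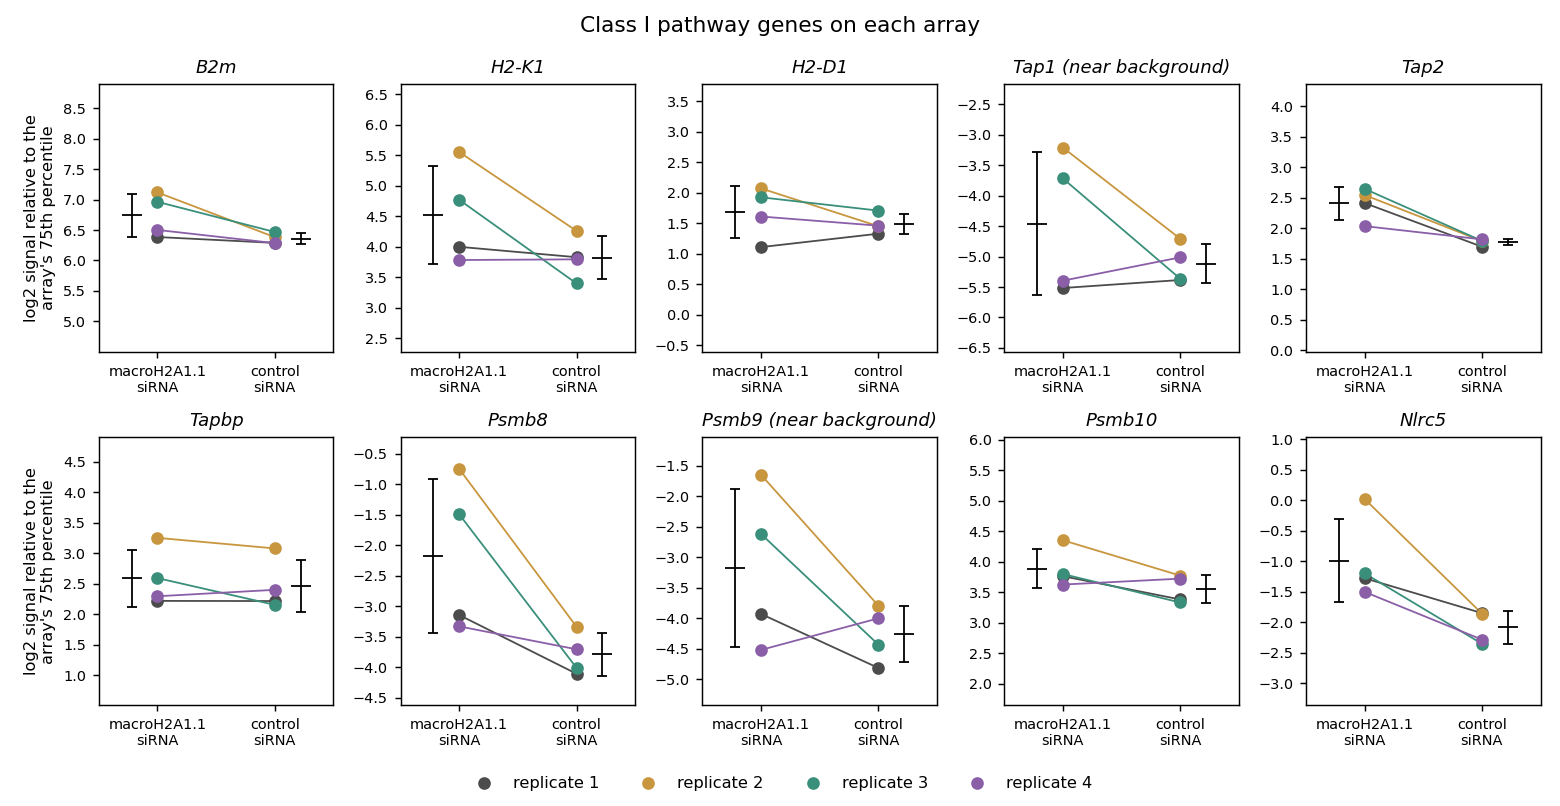
Level of each of the 10 genes on each array (log2 signal, with 0 at the array's 75th percentile), with macroH2A1.1 siRNA samples left of control samples and a line joining samples of the same replicate number; bars give the mean and SD of 4 arrays. All panels span the same number of log2 units, and in all 10 of them replicates 2 and 3 lie highest among the depleted samples.

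Among the transporter genes, Tap2 encodes the partner subunit with which TAP1 forms the peptide pump. Its probe (chr17:34353116-34353175, plus strand, mm9) read 2.42, 2.55, 2.65 and 2.04 in macroH2A1.1 siRNA samples 1 to 4, against 1.70, 1.79, 1.79 and 1.82 in control samples. The control samples lay within a narrow band and all 4 depleted samples were above it, replicate 4 the least, with means of 2.41 ± 0.27 in macroH2A1.1 siRNA samples and 1.78 ± 0.05 in control samples (SD, n = 4 each). The difference was 0.64 (SE 0.13, a 1.55-fold higher signal), with limma adjusted p = 0.151 unpaired and 0.0388 with pairs (SE 0.12). Leaving out pairs 1, 2, 3 and 4 in turn gave paired adjusted p of 0.143, 0.116, 0.128 and 0.0232, so the call was lost when any of the first 3 pairs was left out. Because RNA came from whole cultures, fewer or more cells expressing a gene and less or more RNA per cell cannot be told apart here or in the results that follow.

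Tap1 was dim. Its 10 replicate spots averaged -5.52, -3.21, -3.72 and -5.40 in macroH2A1.1 siRNA samples, against -5.39, -4.71, -5.36 and -5.01 in control samples. Only depleted samples 2 and 3 were well above background, and no control sample was. Spot by spot, 0 of 10, 10 of 10, 9 of 10 and 0 of 7 unflagged spots were well above background in depleted samples 1 to 4, against 0 of 9, 1 of 10, 0 of 9 and 0 of 10 in control samples. The repeated spots thus gave the same picture within an array, while the groups overlapped because depleted samples 1 and 4 read as low as the control samples. The mean over all 4 depleted arrays was 0.66 above that of the control arrays, with no test. Set against the lowest level called well above background on each control array, the lower bound of the fold was 1.0007, which is no limit in practice.

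**Figure D2:**
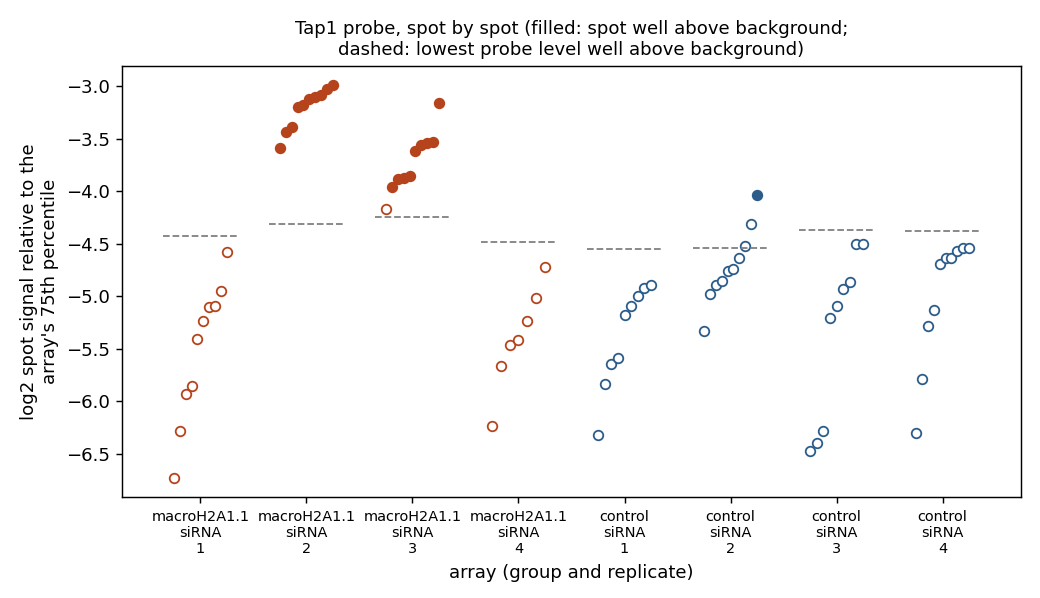
Each unflagged spot of the Tap1 probe on each array (log2 signal, with 0 at the array's 75th percentile), filled where the spot was well above background; the dashed line is the lowest level of any probe called well above background on that array. Filled spots are nearly all on the arrays of macroH2A1.1 siRNA samples 2 and 3.

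Tapbp encodes tapasin, which bridges the transporter to the heavy chain during loading. Its probe (chr17:34065963-34066022, plus strand) read 2.22, 3.25, 2.59 and 2.29 in macroH2A1.1 siRNA samples, against 2.22, 3.08, 2.15 and 2.40 in control samples. Replicate 2 was the highest of both groups, and the groups overlapped over most of their range. The difference was 0.13 (SE 0.28, limma adjusted p = 0.923, and 0.462 with pairs) and ran from -0.094 without macroH2A1.1 siRNA replicate 2 to 0.33 without control replicate 2.

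The immunoproteasome replaces 3 catalytic subunits of the standard proteasome, and Psmb8, Psmb9 and Psmb10 encode the replacements. Psmb8 (LMP7) read -3.14, -0.75, -1.49 and -3.33 in macroH2A1.1 siRNA samples, against -4.11, -3.33, -4.01 and -3.70 in control samples. Depleted samples 2 and 3 stood far above every control sample, while depleted sample 4 was level with the highest control sample, so the groups were apart only beyond the second decimal. The means were -2.18 ± 1.26 in macroH2A1.1 siRNA samples and -3.79 ± 0.35 in control samples (SD, n = 4 each). Every array was well above background. The control levels were nevertheless not far above the lowest levels called so on those arrays, -4.55 to -4.37. The difference was 1.61 (SE 0.56, 3.06-fold), with limma adjusted p = 0.306 unpaired and 0.0721 with pairs. The size differed between settings: it was 0.77 with normexp background correction (offset 50) and 0.66 on the authors' own series values. What caused this was not tested.

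Psmb9 (LMP2), transcribed from the other side of the sequence shown in capitals above, was near background as Tap1 was. Its probe read -3.93, -1.65, -2.62 and -4.52 in macroH2A1.1 siRNA samples, against -4.81, -3.79, -4.43 and -4.00 in control samples. It was well above background on depleted arrays 1, 2 and 3 and on control arrays 2 and 4, so it was not tested. The pair differences were 0.88, 2.15, 1.81 and -0.52 for Psmb9, beside -0.13, 1.49, 1.64 and -0.38 for Tap1: in both genes pairs 2 and 3 were the highest. For Tap1, neither array of pair 1 or of pair 4 was well above background, so the sign of those values carries no information. For Psmb9 the control array of pair 4 was well above background and the depleted array was not. The size of that difference is therefore read partly from background signal. A further Psmb9 probe, at chr17:34322762-34322821, was not well above background on any of the 8 arrays.

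Psmb10 (MECL-1) lies outside the MHC, on chromosome 8. Its probe (chr8:108459677-108459736, minus strand) read 3.76, 4.35, 3.80 and 3.62 in macroH2A1.1 siRNA samples, against 3.38, 3.77, 3.33 and 3.72 in control samples. Depleted sample 2 was the highest and pair 4 ran the other way by -0.10. The difference was 0.33 (SE 0.18, limma adjusted p = 0.518, and 0.149 with pairs), and 0.18 without macroH2A1.1 siRNA replicate 2.

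Nlrc5 is also on chromosome 8, and its protein acts at class I promoters together with DNA-binding factors. Its brighter probe (chr8:97051105-97051164, plus strand) read -1.28, 0.02, -1.20 and -1.50 in macroH2A1.1 siRNA samples, against -1.85, -1.86, -2.35 and -2.28 in control samples. All 4 depleted samples lay above all 4 control samples, and depleted sample 2 lay furthest from the rest. The means were -0.99 ± 0.69 in macroH2A1.1 siRNA samples and -2.08 ± 0.27 in control samples (SD, n = 4 each). The difference was 1.096 (SE 0.32, 2.14-fold), with limma adjusted p = 0.245 unpaired and 0.0442 with pairs (SE 0.22). The paired call was lost whichever pair was left out (adjusted p = 0.0968, 0.0668, 0.140 and 0.0748 without pairs 1 to 4).

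A second Nlrc5 probe did not show this difference. It maps to a genomic span of 147 bases at chr8:97030478-97030624 (plus strand), longer than the probe itself, was well above background on 3 depleted arrays and 2 control arrays, and differed by 0.10 on average, with pair differences of 0.46, 0.45, -0.70 and 0.17. The brighter probe has 1 spot per array, and its difference was 0.68 with normexp background correction and 0.62 on the authors' series values.

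The heavy chain genes H2-K1 and H2-D1 encode the classical class I molecules that present peptides. The H2-K1 probe with 10 spots (chr17:34133055-34133114, minus strand) read 4.00, 5.56, 4.77 and 3.78 in macroH2A1.1 siRNA samples, against 3.83, 4.26, 3.40 and 3.80 in control samples. Depleted samples 2 and 3 were above all control samples and depleted samples 1 and 4 were among them. Its difference was 0.71 (SE 0.38, limma adjusted p = 0.517, and 0.166 with pairs), with pair differences of 0.17, 1.29, 1.37 and -0.01. Without macroH2A1.1 siRNA replicate 2 the difference was 0.36.

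The second H2-K1 probe (chr17:34133984-34134043, minus strand) read 3.71, 4.87, 4.66 and 3.99 in macroH2A1.1 siRNA samples, against 3.84, 4.15, 4.08 and 3.99 in control samples. It ranked the depleted samples nearly as the first probe did, with a smaller difference of 0.30 (limma adjusted p = 0.782 over all probes, and 0.344 with pairs). H2-D1 (chr17:35403886-35403945, plus strand) read 1.11, 2.07, 1.93 and 1.61 in macroH2A1.1 siRNA samples, against 1.33, 1.45, 1.71 and 1.46 in control samples. Its groups overlapped on both sides, and the difference was 0.19 (SE 0.20, limma adjusted p = 0.794, and 0.411 with pairs). It was 0.38, 0.061 and 0.11 without macroH2A1.1 siRNA replicates 1, 2 and 3. Class I genes are close relatives and differ between mouse strains, so how far a heavy chain probe also reads its relatives, and how well it matches the alleles of this line, was not tested.

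B2m encodes beta-2-microglobulin, the light chain shared by all classical class I molecules. Its probe (chr2:121978401-121978460, plus strand, 2 spots) read 6.38, 7.12, 6.96 and 6.50 in macroH2A1.1 siRNA samples, against 6.29, 6.38, 6.47 and 6.28 in control samples. Depleted samples 2 and 3 were again the highest, and only depleted sample 1 lay within the control range. The difference was 0.39 (SE 0.17, 1.31-fold), higher in all 4 pairs, with limma adjusted p = 0.413 unpaired and 0.104 with pairs.

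**Figure D3:**
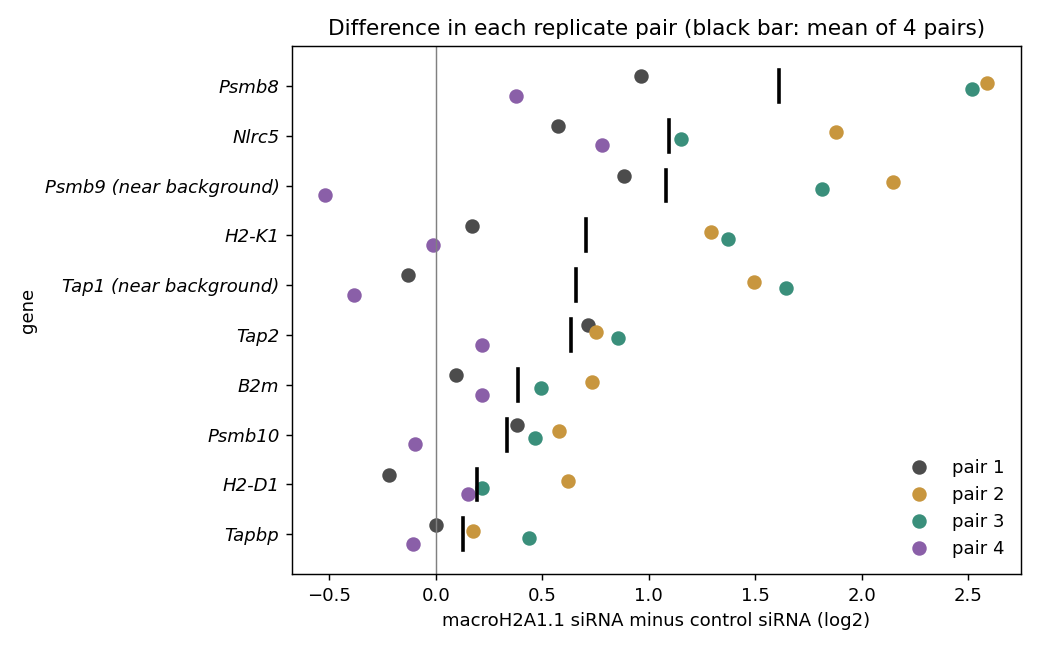
Difference of macroH2A1.1 siRNA minus control siRNA in each replicate pair (log2) for the 10 genes, ordered by the mean of the 4 pairs (black bar). Pairs 2 and 3 lie furthest to the right for most genes, and pair 4 lies at or below 0.22 for all but Psmb8 and Nlrc5.

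Set side by side, the members differed most in the same pairs. Over the 8 tested members the median difference was 0.28 in pair 1, 0.74 in pair 2, 0.67 in pair 3 and 0.18 in pair 4, beside medians over all genes of 0.03, -0.01, -0.03 and 0.01. Of the 8, 7, 8, 8 and 5 were higher in the depleted sample of pairs 1 to 4, where 55.6%, 48.9%, 45.4% and 51.8% of all genes were, so pair 4 was close to the share over all genes. The median of the members' mean differences was 0.51, against 0.00 over all genes, and was 0.31 without macroH2A1.1 siRNA replicate 2.

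With pairs, 2 of the 8 members passed as higher (Tap2 and Nlrc5) and 0 as lower, where 4.16% of all genes passed as higher and 3.91% as lower. At an unadjusted p under 0.05, 6 of the 8 were higher with pairs, against 14.4% of all genes. In 3 of the 8 (Tap2, Psmb8 and Nlrc5) the groups did not overlap, against 4.28% of all genes, and 4 of the 8 were higher in all 4 pairs, against 19.4%. When each probe was tested alone, 0 members passed unpaired (0.004% of probes passed in either direction) and 0 with pairs (1.62% passed as higher), and with probes near background kept, 0 members and 0% of all genes did.

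The 8 members also varied together from array to array. The correlation of each with the mean of the other 7 over the 8 arrays was 0.98 for Psmb8, 0.96 for H2-K1, 0.92 for B2m, 0.89 for Nlrc5 and for Psmb10, 0.80 for Tap2, 0.71 for Tapbp and 0.67 for H2-D1. These points share their arrays and include the difference between the groups. The members' mean centred level was -0.08, 1.01, 0.49 and -0.14 in macroH2A1.1 siRNA samples 1 to 4, against -0.42, -0.07, -0.45 and -0.33 in control samples, which sets depleted samples 2 and 3 apart from depleted samples 1 and 4. Depleted sample 2 also stood apart over all genes, at 60.0 on the first principal component (34.8% of the variance) where the other 7 arrays lay between -27.4 and 8.06.

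The 6 other genes whose levels most resembled the members' mean, of 13058 measured on all arrays, were Ddx58 (r = 0.98), Eif2ak2 (0.98), Adar (0.97), Dnaic1 (0.97), Ifi27l2a (0.97) and Trex1 (0.97), over the 8 arrays. Ddx58 encodes the RNA sensor RIG-I, Eif2ak2 the RNA-dependent kinase PKR, Adar an RNA-editing enzyme, Ifi27l2a an interferon-inducible protein and Trex1 a DNA exonuclease, while Dnaic1 encodes a dynein chain of cilia. Ifi27l2a read 1.04, 6.39, 5.18 and 0.98 in macroH2A1.1 siRNA samples, against 0.40, 0.71, -0.19 and 0.68 in control samples. Its 2 high arrays were those on which the members were highest. Ddx58 read 1.15, 2.66, 2.22 and 1.01 in macroH2A1.1 siRNA samples, against 0.79, 1.25, 0.84 and 1.06 in control samples, the same order among the depleted samples. Both genes were picked by their likeness to the members on these same arrays, so the shared order is no separate result.

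**Figure D4:**
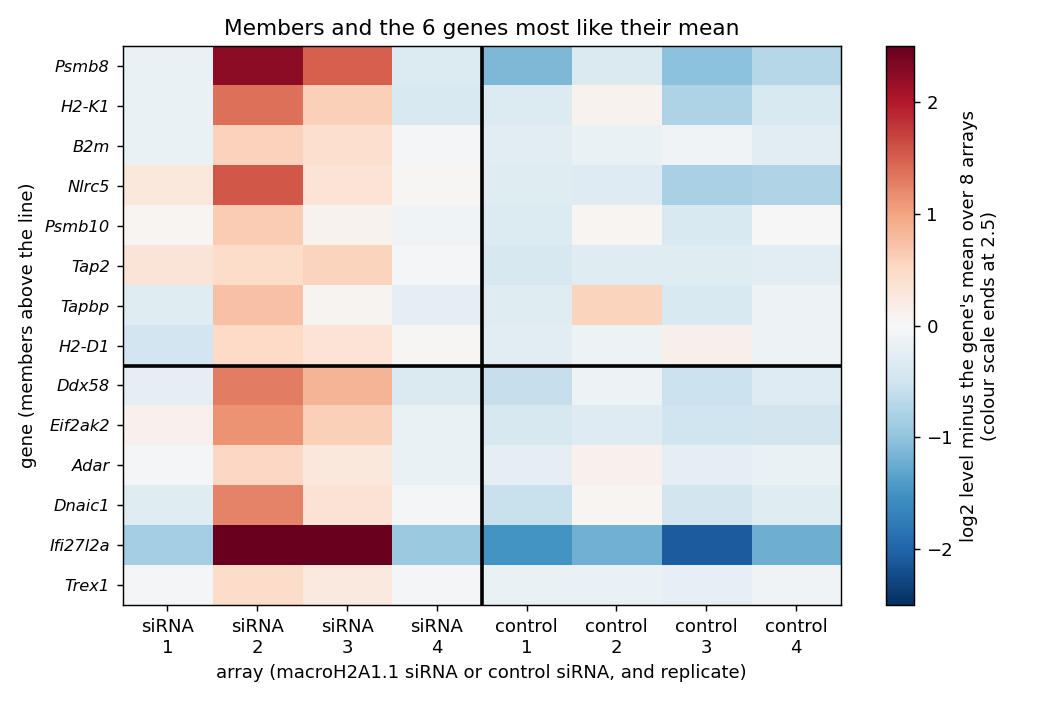
Level of the 8 tested members (above the line) and of the 6 genes most like their mean (below it) on each array, as log2 difference from the gene's mean over 8 arrays, with the colour scale ending at 2.5. The arrays of macroH2A1.1 siRNA samples 2 and 3 carry the highest levels in most rows.

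The rest of the class I pathway was followed in 10 lists chosen by role. Without pairing 0 genes of these lists passed, so the counts that follow are those of the paired fit. At an unadjusted paired p under 0.05, 0 of the heavy chain list, 1 of the class I-like list, 2 of the endoplasmic reticulum list, 2 of the transcription factor list and 1 of the interferon list were higher, and 1, 1, 0, 2 and 2 were lower. Of 14 other measured class I heavy chain genes, 0 rose and 1 fell with pairs: H2-M3, which presents formylated peptides, by -0.42 (limma adjusted p = 0.0242 with pairs). The list's median difference was 0.16, with 11 of 14 above 0, and its pair medians of -0.21, 0.50, 0.34 and -0.05 put pairs 2 and 3 above pairs 1 and 4, as in the members. Of 4 class I-like genes, 0 rose and 1 fell with pairs (Fcgrt, the neonatal Fc receptor, by -0.53, limma adjusted p = 0.0275), with a list median of -0.18.

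Among 7 chaperone and peptide-trimming genes of the endoplasmic reticulum, 1 passed as higher and 0 as lower with pairs, with a median of 0.13. The 1 was Erap1, the aminopeptidase that trims peptides to class I length, which read -3.35, -3.27, -3.61 and -3.54 in macroH2A1.1 siRNA samples, against -4.10, -4.12, -4.89 and -4.31 in control samples. Its groups did not overlap and its pair differences were 0.75, 0.85, 1.29 and 0.78, with pair 2 close to pairs 1 and 4. The limma adjusted p was 0.0172 with pairs and 0.134 without. However, 2 of the control arrays were not well above background, so Erap1 entered the test only through the depleted samples, and its difference of 0.92 is set partly against background signal.

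Standard proteasome subunits had differences of 0.33 or less, most of them above 0. Of 14 constitutive 20S subunits, 1 rose with pairs (Psmb5, the subunit that PSMB8 replaces, by 0.33, limma adjusted p = 0.0397) and 0 fell, with a median of 0.19 and 12 of 14 above 0. Of 20 subunits of the 19S cap, 2 rose with pairs (the ATPases Psmc5, by 0.33, limma adjusted p = 0.034, and Psmc4, by 0.30, limma adjusted p = 0.0388) and 0 fell, with a median of 0.13 and 17 of 20 above 0. At an unadjusted paired p under 0.05, 8 of the 14 and 8 of the 20 were higher and 0 were lower in either list, against the 14.4% of all genes given above as higher. In neither list did pairs 2 and 3 lead: the pair medians were 0.30, 0.18, 0.13 and 0.14 for the 20S subunits and 0.22, 0.14, 0.08 and 0.06 for the 19S cap.

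Of 7 proteasome activator and assembly genes, 0 passed in limma's paired fit (2 were higher at an unadjusted p under 0.05), with a median of 0.12. The largest differences there were 0.25 for the activator Psme4 and 0.20 for the assembly factor Pomp (limma adjusted p = 0.140 and 0.103 with pairs). Of 8 peptidases, 0 passed as well (2 were higher and 1 lower at an unadjusted p under 0.05), with a median of 0.12 and values of -0.28 for Thop1 and 0.24 for Prep (limma adjusted p = 0.0740 and 0.330 with pairs).

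**Figure D5:**
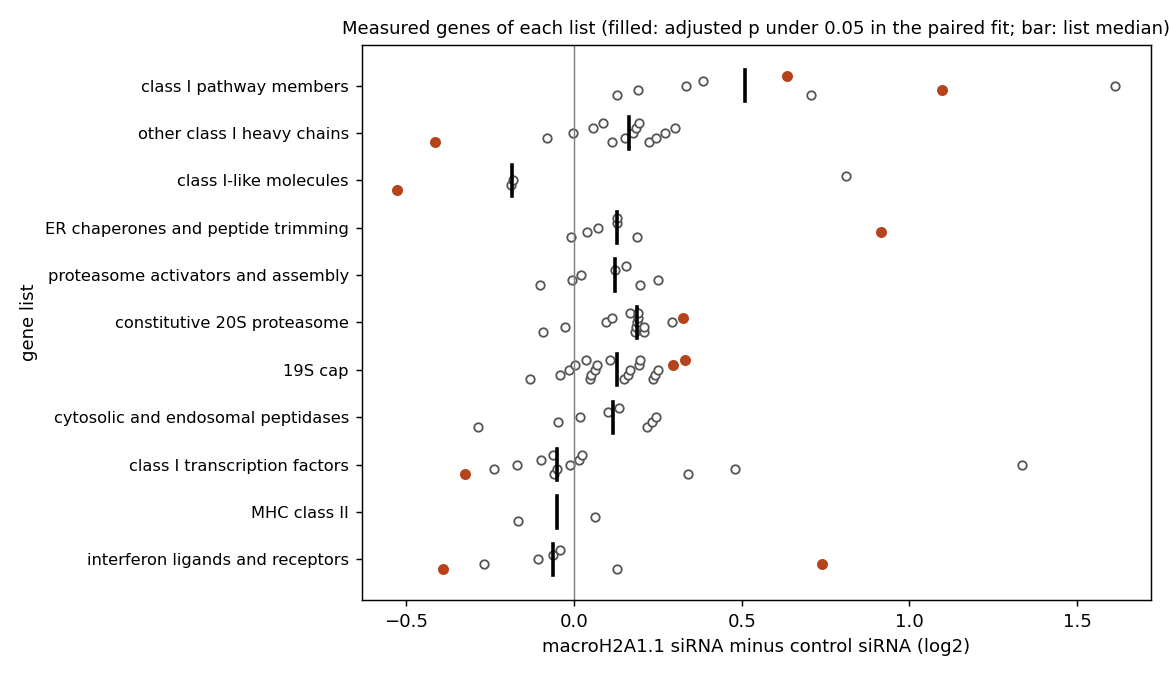
Difference of macroH2A1.1 siRNA minus control siRNA (log2, mean of 4 pairs) for each measured gene of the members and of 10 further lists, filled where limma's adjusted p with pairs was under 0.05; bars are list medians. The members' median of 0.51 is beside list medians between -0.18 and 0.19.

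Among 13 measured transcription factors known to act on class I genes, 0 rose and 1 fell with pairs (Nfya, a subunit of the CCAAT-binding factor, by -0.33, limma adjusted p = 0.0471), with a median of -0.05. Irf1, an interferon-induced activator of class I genes, differed by 0.02 (limma adjusted p = 0.982, and 0.920 with pairs), with pair differences of 0.05, -0.26, 0.43 and -0.13. Rfx5, which binds the class I promoter box with NLRC5, was well above background on 0 arrays and Ciita, the class II coactivator, on 1 depleted array.

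Irf9 and Stat2, factors of type I interferon signalling, are named after their values were seen. Irf9 read 1.41, 2.86, 2.19 and 0.84 in macroH2A1.1 siRNA samples, against 0.74, 0.40, 0.25 and 0.57 in control samples, a difference of 1.34 with no overlap (limma adjusted p = 0.248, and 0.0909 with pairs). Stat2 differed by 0.48 (limma adjusted p = 0.346, and 0.201 with pairs), with pair differences of 0.04, 0.97, 0.93 and -0.02. In both genes pairs 2 and 3 were the highest, as for the members.

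Of 7 measured interferon and interferon receptor genes, 1 passed as higher and 1 fell with pairs. Ifng, the gene of interferon gamma, read -3.08, -3.51, -3.56 and -3.77 in macroH2A1.1 siRNA samples, against -3.42, -4.41, -4.33 and -4.71 in control samples, with limma adjusted p = 0.0275 with pairs and 0.334 without. Because 3 of the control arrays were not well above background, it entered the test only through the depleted samples, and its difference of 0.74 is set mostly against background signal. Replicate 1 had the highest level in either group. The part of Ifng in the members' differences was not tested. The receptor subunit Ifngr2 fell by 0.39 (limma adjusted p = 0.0314 with pairs), and Ifnb1, also named after its values were seen, was well above background on 0 arrays.

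MHC class II genes, which mark antigen-presenting cells, were mostly dim: 9 of 11 were well above background on 0 arrays. The remaining 2, Cd74 and H2-DMa, differed by -0.17 and 0.06 (limma adjusted p = 0.628 and 0.794 with pairs). Of 8 macrophage markers, 6 were measured and Ptprc and Lyz2 were well above background on 0 arrays. The summed linear signal of all 8, in units of the array's 75th percentile, was 19.3 to 25.7 in macroH2A1.1 siRNA samples and 21.7 to 24.5 in control samples. Itgam alone made up most of it, 14.5 to 21.4 in macroH2A1.1 siRNA samples and 18.04 to 19.8 in control samples. Without Itgam the sum was 3.04, 4.75, 6.13 and 3.57 in macroH2A1.1 siRNA samples, against 3.40, 3.72, 4.65 and 3.68 in control samples, with overlapping groups and depleted samples 2 and 3 the highest of the 8, as for most members. Cd68, a lysosomal protein of macrophages named after its values were seen, differed by 1.32 with pair differences of 0.56, 2.12, 2.25 and 0.33 (limma adjusted p = 0.0897 with pairs). It is part of that sum, and no other measured macrophage marker rose in this way. Itgam differed by 0.02, Csf1r by -0.15, Adgre1 by -0.07, Cd14 by -0.04 and Aif1 by -0.25. The part of these markers in the members' differences was not tested.

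Markers of other immune cells were scarce as well, with 1 of 5 dendritic cell, 2 of 5 T and NK cell and 1 of 3 B cell markers measured. The summed signals overlapped between the groups in each of these lists. Dendritic cell markers summed to 0.123 to 0.242 in macroH2A1.1 siRNA samples and 0.150 to 0.207 in control samples. T and NK cell markers summed to 3.81 to 5.32 in macroH2A1.1 siRNA samples and 3.90 to 5.63 in control samples, and B cell markers to 0.117 to 0.178 in macroH2A1.1 siRNA samples and 0.0880 to 0.145 in control samples. Myotube markers were all measured, and 3 of 7 rose with pairs (Mylpf by 0.51, Tnnc2 by 0.43 and Ckm by 0.41, limma adjusted p = 0.0172, 0.0360 and 0.0447). Their summed signal was 1524 to 2276 in macroH2A1.1 siRNA samples and 1309 to 1735 in control samples, and the part of this shift in the members' differences was not tested. Of 4 myoblast markers 2 were measured and 1 rose with pairs (Cdh15, by 0.39, limma adjusted p = 0.0293). Of fibroblast markers 4 of 5 were measured, with 1 lower with pairs (Postn, limma adjusted p = 0.0152), and of endothelial markers 2 of 4, with 0 passing in limma's paired fit (0 at an unadjusted p under 0.05).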

How the data were processed

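RNA of 8 C2C12 samples (4 per group, 500 ng each, per the labels' protocols) was read on 1-colour Agilent arrays. The authors extracted spot intensity in Feature Extraction 10.7.3.1 (Agilent, probe coordinates of mm9), per the file headers, and the processed intensity is background-subtracted by that software. The authors' deposited series values fit a log2 scale (r between 0.998 and 1.00 with the log2 median signal of the same array), with the same median (6.29) in every column. Their background handling is not given in the sources used here, and they served only as an alternative.

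Processed intensity was taken to log2 and set relative to each array's 75th percentile, outlier spots (143 to 236 per array) were set missing, 0 of the spots were saturated, and spots of a probe were averaged. Probes well above background throughout at least 1 group were kept (24987 of 55681, of the members 9 of 13), and the kept probe of highest mean stood for its gene. On each array 46.9% to 49.8% of 59305 spots were well above background, and array number limits the precision. Of the probes, 27592 were named by accession through the RefSeq table (GRCm38.p6), 3498 by symbol, 393 by older symbol, 1511 kept the file's name and 22687 had none. Columns of other series numbered 0.

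The test was limma's (version 3.58.1, R 4.3.3, two-sided) from lmFit and eBayes, with Benjamini-Hochberg adjustment over every gene tested and a threshold of 0.05, without a covariate, and again with the replicate number as a block. Samples 1 to 4 of the groups deviated from their group means together, with correlations of 0.61, 0.55, 0.67 and 0.41, so the numbers were taken to pair the samples. The highest correlation with another number was -0.03. Levels were centred within each group, which by itself pushes these other correlations below 0 when those of the same number are above it. The pairing was thus taken from these same data. The labels call replicates biological without describing the cultures, so each p-value reflects only how far these samples spread, which may be technical. The arrays lie on 1 slide, read in 1 scan, with 1 group in each of 4 array columns. Control samples lie in columns 1 and 3 and depleted samples in columns 2 and 4. A difference between the groups therefore cannot be told apart from one between these columns. Samples of a number are neighbours on the slide, so pairing by culture and by position cannot be told apart.

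The members and lists were chosen with earlier results of these data known. The text names every member and probe, the siRNA target, from each pathway list up to 4 genes that passed with pairs (up to 2 of largest difference where none passed), Irf1, Rfx5 and Ciita, and the 6 genes most like the members' mean. Genes outside that rule are marked where they appear, and 1 gene it takes is not reported here. Motifs were counted in RefSeq start-site windows. Scripts were tested on simulated data and used pandas 2.3.3 and matplotlib 3.10.9 under Python 3.11.15. Alternatives were other background corrections, scalings, filters, probe rules, array rows and columns as blocks, and leaving out each array or pair.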

Additional observations from a re-analysis of the deposited data

How the results depend on the processing

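Without pairing, 0 of the 8 tested members passed (limma, adjusted p under 0.05) in every one of 22 settings, and the members' median difference stayed above 0, between 0.31 (without macroH2A1.1 siRNA replicate 2) and 0.65 (no filter, which adds Tap1 and Psmb9), all within 0.28, the SD of the pair medians, of 0.51. With the replicate block, the count of members was 2, and 3 with normexp, 1 with quantile normalization, 0 with median centring, 2 on the series values, 0 with no filter, 2 with probes well above background on all 8 arrays, 2 with the mean of probes and 0 with every probe alone. It was 0 without pair 1, 2 or 3 and 2 without pair 4. Over 13 paired settings, Tap2 passed in 7 (adjusted p 0.0144 to 0.143), Nlrc5 in 5 (0.0260 to 0.149), Psmb8 in 1 (0.0410 to 0.202) and Psmb10 in 1 (0.0478 to 0.347), all as higher. Of the differences, 1 reversed: Tapbp, at -0.094 without macroH2A1.1 siRNA replicate 2 and up to 0.33 (without control replicate 2) when 1 array was left out. All genes past the threshold numbered 3 without pairing, and 1 with median centring, 1 with every probe alone, 10 with the array row as a block, 0 within array row 1, 0 within row 2, 7 with the array column as a random block, 7 with array weights and 0 to 11 with 1 array left out. With the replicate block they numbered 1106, and 1890 with normexp, 1045 with quantile normalization, 801 with median centring, 1715 on the series values, 0 with no filter, 1342 with the filter on all 8 arrays, 940 with the mean of probes, 786 with every probe alone, and 0, 134, 0 and 594 without pairs 1 to 4. The causes of these shifts were not tested. Signal near background limits Tap1, Psmb9 and the dimmer Nlrc5 probe, and the control levels of Psmb8 were not far above it. The paired calls rest on 4 pairs. In 18 groups of 4 values of the members and the target, 0 samples stood out by Dixon's test.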
